A study of Rattus norvegicus with 3 samples.

Results

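The antioxidant and glutathione enzymes are 63 of the 12758 gene symbols measured in RNA from the acellular fraction of rat spinal cord. The rule that picks them reads symbols and no levels, and takes every listed symbol of the cytosolic and kappa glutathione S-transferases (GSTA, GSTM, GSTP, GSTT, GSTO, GSTZ, GSTK followed by a number), the microsomal glutathione S-transferases (MGST), the peroxiredoxins (PRDX), the glutathione peroxidases (GPX), all symbols that begin with TXN or GLRX, SOD1, SOD2 and SOD3, together with CAT, GCLC, GCLM, GSS, GSR, NQO1, NQO2, NFE2L2 and KEAP1. All 63 match a rat RefSeq symbol. RefSeq holds 84 protein-coding rat symbols that fit the same rule, and 21 of these, GPX1, GPX2, GSTA2, GSTA3 and SRXN1 among them, were not analysed here. The label of the set held for most members by their known function, but not for all. NFE2L2 is a transcription factor, KEAP1 its inhibitor, TXNIP an inhibitor of thioredoxin, and TXNL4A and TXNL4B are proteins of the splicing machinery that share the thioredoxin fold.

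Female Sprague Dawley rats aged 3 months underwent laminectomy at T9, which was the whole procedure in the control group (No-SCI) and was followed by a contusion of 250 kdyne in the injured group (SCI), and about 2 mm of cord just rostral to that level was taken after 24 h. A cold-active protease was applied at 6°C, cells were pelleted at low speed, and ribosomal RNA was removed from the RNA of the supernatant before strand-specific sequencing. By the sample labels the No-SCI group has 2 libraries and the SCI group 1, while the study's methods give 2 animals per condition. The deposited table holds 1 value per condition for each gene, the authors' group estimate in FPKM (read fragments scaled by transcript length and by library size), with no value for a single animal, so no spread, interval or test could be computed. The study's methods state a read depth per sample, but the table holds no read counts, so the number of reads behind a value is unknown. Each difference below therefore compares 2 group values, and "past 2-fold" means a ratio of SCI to No-SCI of at least 2 or at most its inverse.

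Glutathione is a small cysteine peptide that cells hold at high concentration as a reducing agent. It is made by glutamate-cysteine ligase and glutathione synthetase, oxidised by glutathione peroxidases as they reduce peroxides, returned to its reduced form by glutathione reductase, and attached to reactive compounds by glutathione S-transferases. The thioredoxin, peroxiredoxin and glutaredoxin proteins form the parallel thiol system, superoxide dismutases turn superoxide into hydrogen peroxide, and the transcription factor NRF2 (gene NFE2L2), held back by KEAP1, drives many of these genes through the antioxidant response element. In the central nervous system glutathione and NRF2 activity are best known from astrocytes.

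The antioxidant response element is the regulatory sequence that the set is best known to share, and it was looked for in the RefSeq promoters (build GRCr8, 250 bases before to 50 after the start of a gene), of which 61 were held for 54 members. Its core, searched as TGACNNNGC on both strands, was present in 16 of the 61 member promoters, or 26.2%, against 14.7% of the 10771 promoters of all symbols in the table and 12.1% of all 33469 rat promoters. The AP-1 motif, searched as TGANTCA, was in 6 member promoters (9.84%), against 4.96% of the promoters of the table's symbols and 7.33% of all promoters. The motifs can overlap, since the letters TGACTCAGC match both, and 3 member promoters, those of GSTM5, GSTP1 and PRDX1, held both motifs. The windows that follow show the core in the members past 2-fold that had it (GCLM, GSTM5 and TXNDC5) and in 3 well studied members within 2-fold (GSTP1, PRDX1 and TXNRD1). Each is written 5′ to 3′ on the strand of the gene, with the match in capitals, and a match that begins with GC is the core read from the opposite strand.
GCLM, chr2:213031943-213031991, plus strand, 172 bases before the start: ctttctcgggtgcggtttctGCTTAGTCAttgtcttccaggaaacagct
GSTM5, chr2:198219636-198219684, plus strand, 113 bases before the start: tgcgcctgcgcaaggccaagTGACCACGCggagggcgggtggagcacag
GSTM5, chr2:198219696-198219744, plus strand, 53 bases before the start: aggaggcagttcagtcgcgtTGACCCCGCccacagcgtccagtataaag
TXNDC5, chr17:26495425-26495473, plus strand, 22 bases before the start: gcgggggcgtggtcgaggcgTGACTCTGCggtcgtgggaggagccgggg
GSTP1, chr1:210769738-210769786, minus strand, 61 bases before the start: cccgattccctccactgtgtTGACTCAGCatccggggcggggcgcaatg
PRDX1, chr5:135383751-135383799, plus strand, 135 bases before the start: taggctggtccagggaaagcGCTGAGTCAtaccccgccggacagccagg
TXNRD1, chr7:22755954-22756002, minus strand, 78 bases before the start: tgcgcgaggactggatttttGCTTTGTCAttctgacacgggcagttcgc
These are matches of letters, with no measurement of binding. In these 54 members, the log2 ratio (SCI over No-SCI) had a median of 0.16 over the 16 members that had it (10 above 0 and 6 below) and of 0.17 over the 38 members with a promoter that lacked it (23 above 0 and 15 below). Among members at least 2-fold higher in SCI, 3 of 7 promoters held the core, and among those at least 2-fold lower 0 of 2 did. Of the 6 members with the AP-1 motif, 5 had a log2 ratio above 0, with a median of 0.49. Of the 48 with a promoter that lacked it, 28 were above 0, with a median of 0.11.

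More members were higher than lower in SCI. Of the 63, 10 were at least 2-fold higher in SCI (15.9%, against 7.93% of all 12758 symbols) and 2 were at least 2-fold lower (3.17%, against 12.1% of all symbols). Over the members the median log2 ratio was 0.22, and over all symbols it was -0.12. The middle 50% of all symbols lay between -0.61 and 0.37. A ratio taken relative to the median gene is 0.12 higher than each one printed here. The log2 ratio was above 0 in 41 members (65.1%, against 43.6% of all symbols) and below 0 in 22. No direction turned on the 6 other scales tried, but these could hardly turn one. Adding or subtracting a constant keeps the sign, and the other scales raise every ratio by at most 0.12. By family, 12 of 17 had a median above 0, but several families hold only 1 or 2 members. The omega transferases and the quinone reductases, both counted above 0, each had 1 member above and 1 below. Most differences were small, with 39 members (61.9%) within 1.5-fold, beside 56.8% of all symbols. The RNA came from the acellular fraction of a mixed tissue. There, fewer cells of a type, less RNA per cell and less of that RNA reaching the fraction cannot be told apart.

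**Figure D1:**
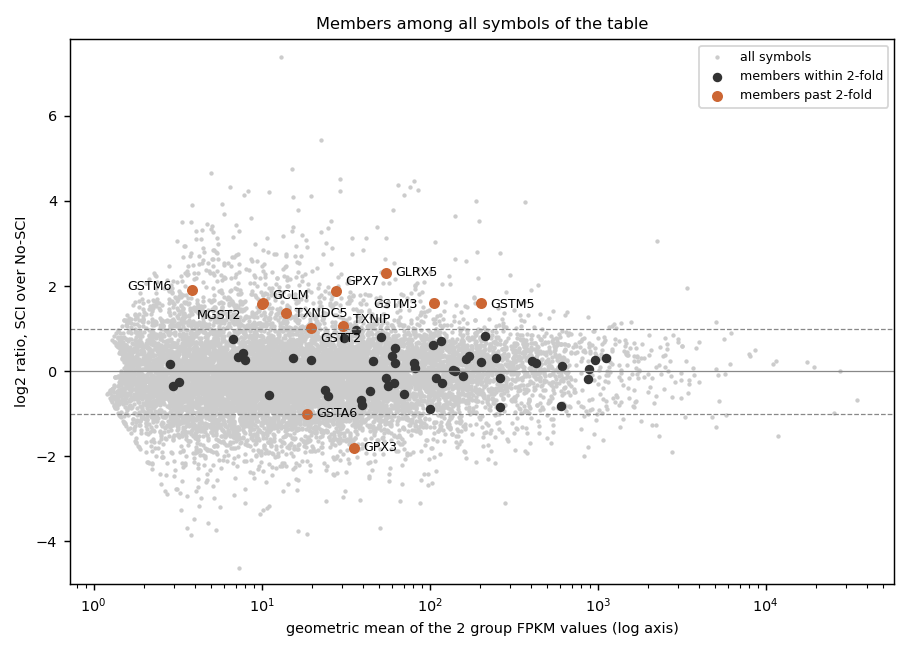
Each point is 1 gene symbol, with the geometric mean of its No-SCI and SCI FPKM on a log axis across and its log2 ratio of SCI to No-SCI upward, all symbols in grey, members within 2-fold in black and the 12 members past 2-fold in orange with their names, and dashed lines at 2-fold. Of the 12 named members 10 lie above the upper line, from GSTT2 at 1.02 to GLRX5 at 2.31, and GPX3 at -1.81 and GSTA6 at -1.002 lie below the lower line.

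As a whole these transcripts were abundant. The median level of a member was 58.4 FPKM in No-SCI and 66.4 FPKM in SCI, against 17.2 and 15.6 FPKM over all symbols, and 51 of the 63 were at 10 FPKM or more in both groups. The members added up to 9772 FPKM in No-SCI and 10532 FPKM in SCI, which is 0.780% and 0.867% of all FPKM listed. In No-SCI 6 members reached 500 FPKM, with PRDX5 highest at 1014 FPKM, followed by GPX4, GSTM1, PRDX2, GSTA1 and PRDX1. PRDX5 was also the highest in SCI, at 1255 FPKM. At the other end GSTM6, GSTO2, TXNRD2 and TXNRD3 had a mean of the 2 groups under 5 FPKM. No filter on low values was applied, so all 63 members enter each count.

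**Figure D2:**
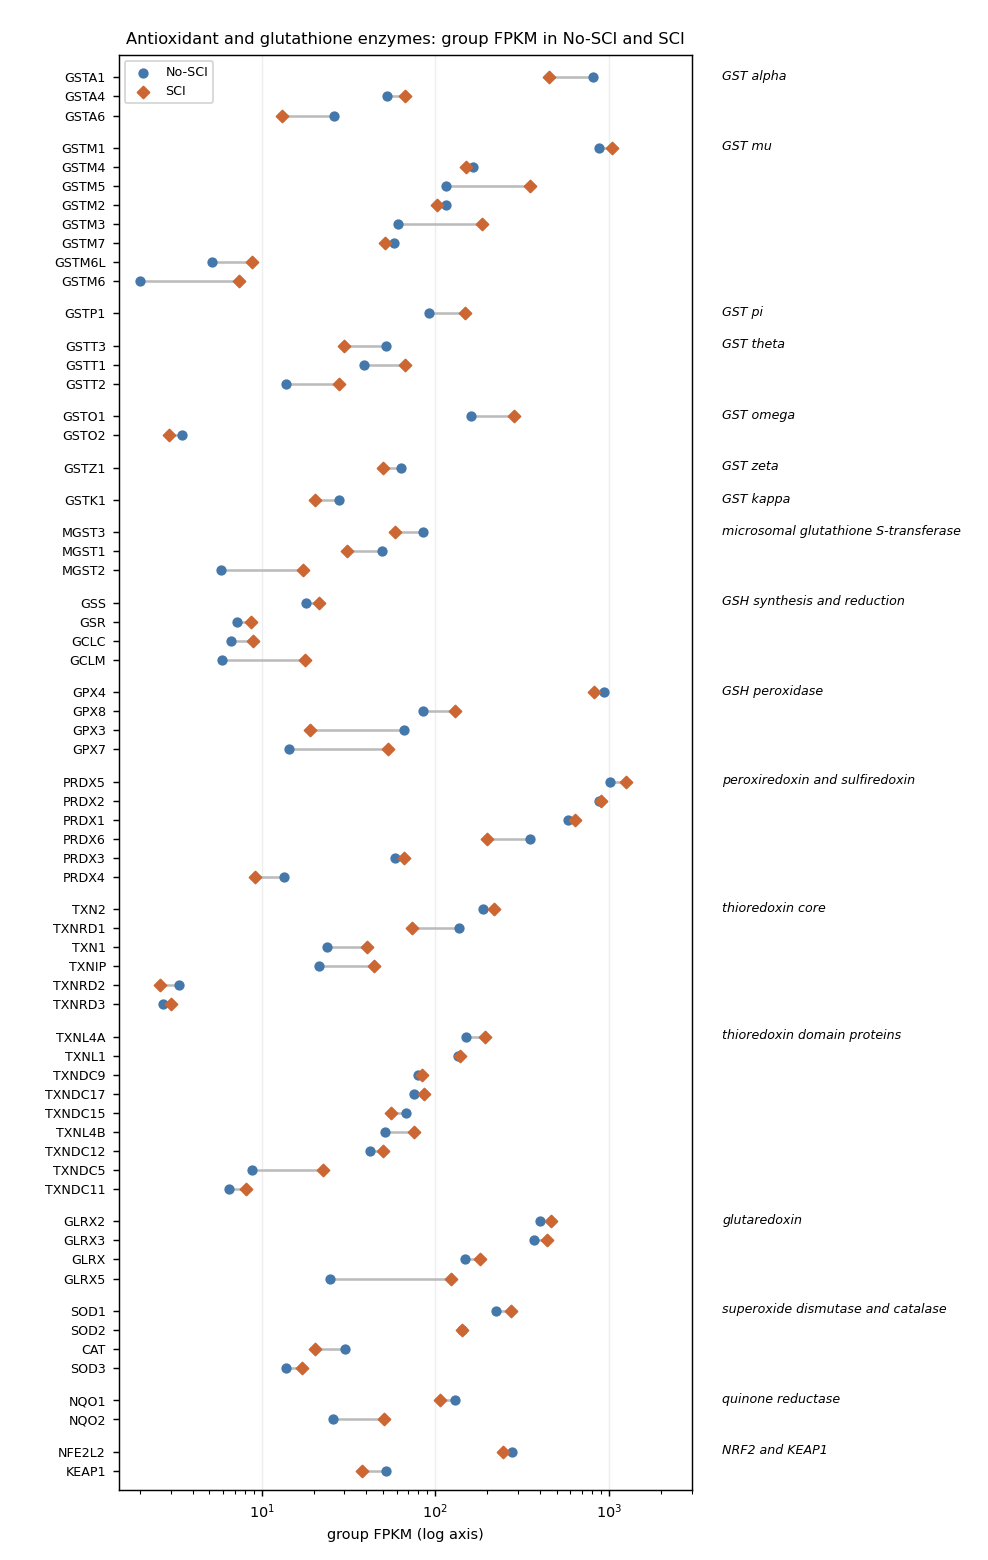
The group FPKM of each of the 63 members on a log axis, No-SCI as blue circles and SCI as orange diamonds joined by a line, ordered by enzyme family and within it by the No-SCI level. The longest lines are those of GLRX5, GSTM6, GPX7 and GPX3, whereas SOD2, TXNL1 and PRDX2 have markers that lie on each other.

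The genes that make glutathione were all higher in SCI, but by unequal amounts. GCLM, the modifier subunit of glutamate-cysteine ligase that raises the efficiency of the enzyme, was listed at 5.89 FPKM in No-SCI and 17.9 FPKM in SCI, a log2 ratio of 1.60. GCLC, the catalytic subunit that carries out the rate-limiting step, was at 6.69 and 8.93 FPKM (log2 ratio 0.42). The level of GCLM was thus 0.881 times that of GCLC in No-SCI and 2.003 times in SCI. Both subunits were among the less abundant members. GSS, glutathione synthetase, which adds the last amino acid, was at 18.04 and 21.5 FPKM (0.25), and GSR, which reduces oxidised glutathione with NADPH, was at 7.25 and 8.73 FPKM (0.27). Of these 4 genes, GCLM alone was past 2-fold.

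The glutathione S-transferases differed by class, with a median log2 ratio of 0.50 over 8 mu class members and -0.83 over 3 alpha class members. With so few members, the alpha median is the value of GSTA1. Of the 19 cytosolic and kappa members, 10 had a log2 ratio above 0 and 9 below, with 4 past 2-fold higher, 1 past 2-fold lower and a median of 0.25 over all 19. The mu class held 3 of the 4 higher ones. GSTM5 was at 116 FPKM in No-SCI and 352 FPKM in SCI (log2 ratio 1.61), GSTM3 at 61.2 and 187 FPKM (1.61), and the weakly listed GSTM6 at 2.002 and 7.45 FPKM (1.90). GSTM1, the most abundant of the class, was nearer to level at 881 and 1046 FPKM (0.25). The other members of the class were GSTM6L at 0.76 and GSTM2, GSTM4 and GSTM7 between -0.17 and -0.13, so that the class as a whole had a summed level of 1403 FPKM in No-SCI and 1907 FPKM in SCI. Mu class genes are near copies of each other, and reads could be split among them by the authors' counting, so the values of single mu genes are less certain than their sum.

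In the alpha class, which conjugates lipid peroxidation products among others, 2 of the 3 members were lower in SCI. GSTA1, its main member here, was at 810 FPKM in No-SCI and 455 FPKM in SCI (log2 ratio -0.83). GSTA6 was at 26.3 and 13.1 FPKM (-1.002), at the edge of 2-fold, and GSTA4, which is known for its activity on 4-hydroxynonenal, was higher in SCI at 52.8 and 67.3 FPKM (0.35). The 3 alpha members added up to 889 FPKM in No-SCI and 535 FPKM in SCI. GSTA1 was thus the fifth most abundant member of the whole set in No-SCI and the seventh in SCI, and GSTM1 was above it in both groups. The alpha genes GSTA2, GSTA3 and GSTA5 were not analysed here, and whether reads were split among alpha genes is unknown.

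The remaining transferase classes each had few members. GSTP1, the pi class enzyme, was at 91.6 FPKM in No-SCI and 149 FPKM in SCI (log2 ratio 0.70), and GSTO1, an omega class enzyme with thioltransferase activity, at 160 and 284 FPKM (0.82). In the theta class, GSTT2 was at 13.8 and 28.0 FPKM (1.02) and GSTT1 at 39.0 and 67.3 FPKM (0.79), whereas GSTT3 was lower in SCI at 51.8 and 30.01 FPKM (-0.79). The theta class therefore held members of nearly equal ratio and opposite direction. GSTZ1, which also takes part in tyrosine breakdown, was at 63.8 and 50.4 FPKM (-0.34), the mitochondrial and peroxisomal GSTK1 at 27.8 and 20.3 FPKM (-0.45), and GSTO2 at 3.50 and 2.94 FPKM (-0.25). Of the microsomal transferases, which sit in membranes and in part make leukotrienes, MGST2 was at 5.84 and 17.3 FPKM (1.57), while MGST1 was at 49.6 and 31.0 FPKM (-0.68) and MGST3 at 84.98 and 58.6 FPKM (-0.54). MGST2 was the least abundant of these 3 in both groups, and their median log2 ratio was -0.54 with a mean of 0.12.

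Among the glutathione peroxidases GPX3 had the lowest log2 ratio of the 63 members, and GPX7 one of the highest. GPX3, a secreted selenoenzyme, was at 66.1 FPKM in No-SCI and 18.9 FPKM in SCI (log2 ratio -1.81). GPX7, which works on peroxide in the endoplasmic reticulum, was at 14.5 and 53.6 FPKM (1.89), and its relative GPX8 in the same compartment was at 84.6 and 129 FPKM (0.61). GPX4, the selenoenzyme that reduces lipid hydroperoxides in membranes and so protects from ferroptosis, was by far the most abundant at 942 and 823 FPKM (-0.19). The level of GPX4 was 14.2 times that of GPX3 in No-SCI and 43.5 times in SCI.

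The peroxiredoxins, thiol peroxidases that carry much of the cell's peroxide reduction, had the highest summed level of the 17 families, in which each transferase class counts as a family, with 2904 FPKM in No-SCI and 3070 FPKM in SCI, and none of the 6 was past 2-fold. PRDX5, found in mitochondria, peroxisomes and cytosol, was at 1014 and 1255 FPKM (log2 ratio 0.31), the cytosolic PRDX2 at 880 and 905 FPKM (0.04) and PRDX1 at 585 and 637 FPKM (0.12). These 3 made up most of the family's level in both groups. PRDX6, the 1-cysteine member that is strong in astrocytes, was at 353 FPKM in No-SCI and 198 FPKM in SCI (-0.84), the mitochondrial PRDX3 at 58.4 and 66.4 FPKM (0.18), and PRDX4 of the endoplasmic reticulum at 13.5 and 9.16 FPKM (-0.56). The median log2 ratio of the family was 0.08 and the mean -0.12.

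In the cytosolic thioredoxin system the reductase was lower and its substrate higher in SCI. TXN1, cytosolic thioredoxin, was at 23.8 FPKM in No-SCI and 40.6 FPKM in SCI (log2 ratio 0.77), and TXNRD1, the selenoenzyme that reduces it with NADPH, was at 138 and 73.9 FPKM (-0.90). The level of TXN1 was 0.173 times that of TXNRD1 in No-SCI and 0.550 times in SCI. TXNIP, the protein that binds and inhibits thioredoxin, was at 21.4 and 44.2 FPKM (1.05), so that the ratio of TXN1 to TXNIP was 1.12 in No-SCI and 0.919 in SCI. In mitochondria, too, the thioredoxin was above 0 and its reductase below, with TXN2 at 188 and 219 FPKM (0.22) and TXNRD2 at 3.33 and 2.62 FPKM (-0.35), and TXNRD3 was at 2.72 and 3.02 FPKM (0.15). Among the 9 other proteins with a thioredoxin fold, 8 had a log2 ratio above 0, as had 43.6% of all symbols. TXNDC5, a disulfide isomerase of the endoplasmic reticulum known from endothelium and fibroblasts, was at 8.75 and 22.5 FPKM (1.36), and the other 8 lay between -0.28 and 0.54. The most abundant of these were TXNL4A at 151 and 193 FPKM (0.36) and TXNL1 at 136 and 138 FPKM (0.03).

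GLRX5 had the largest ratio of all 63 members. This mitochondrial glutaredoxin, which passes iron-sulfur clusters to other proteins and is not chiefly a reductase, was at 24.9 FPKM in No-SCI and 123.2 FPKM in SCI, a log2 ratio of 2.31. The other glutaredoxins were all above 0 and near to each other, with GLRX, the cytosolic enzyme that removes glutathione from proteins, at 149 and 181 FPKM (0.28), the mitochondrial and nuclear GLRX2 at 402 and 462 FPKM (0.20), and GLRX3, which also handles iron-sulfur clusters, at 373 and 441 FPKM (0.24). GLRX5 was the least abundant glutaredoxin in both groups.

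The superoxide dismutases and catalase were all within 2-fold. SOD1, the cytosolic copper and zinc enzyme, was at 223 FPKM in No-SCI and 274 FPKM in SCI (log2 ratio 0.30), and the secreted SOD3 at 13.8 and 17.1 FPKM (0.31). SOD2, the mitochondrial manganese enzyme that is known to answer to inflammatory signals, was listed at 142 FPKM in both groups. CAT, the peroxisomal catalase, was at 30.2 and 20.2 FPKM (-0.58).

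The NRF2 branch showed no common direction. NFE2L2 was at 278 FPKM in No-SCI and 246 FPKM in SCI (log2 ratio -0.17), and KEAP1, the adaptor that marks NRF2 for degradation, at 51.9 and 37.8 FPKM (-0.46), so the ratio of NFE2L2 to KEAP1 was 5.35 in No-SCI and 6.52 in SCI. NQO1, the quinone reductase that is often used as a readout of NRF2, was at 130 and 107 FPKM (-0.29), whereas its relative NQO2 was at 25.9 and 50.9 FPKM (0.97). On the higher side NQO2 was the nearest member within 2-fold, and GSTT2 at 1.02 the nearest past it. On the lower side TXNRD1 at -0.90 was the nearest within 2-fold and GSTA6 at -1.002 the nearest past it.

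The members were also sorted by place in the cell and by selenocysteine, groupings made after the values were seen. The 6 counted as endoplasmic reticulum lumen were GPX7, GPX8, PRDX4, TXNDC5, TXNDC11 and TXNDC12. Of these 6, 5 had a log2 ratio above 0 (83.3%, against 43.6% of all symbols), with a median of 0.48. Their summed level was 170 FPKM in No-SCI and 273 FPKM in SCI. TXNDC15, at -0.28, was not counted with them. The 7 members counted as mitochondrial (GLRX2, GLRX5, GSTK1, PRDX3, SOD2, TXN2 and TXNRD2) had a median of 0.18 and 1 member past 2-fold, GLRX5. PRDX5, which is found in mitochondria among other places, was not counted with them. The 5 selenocysteine enzymes were GPX3, GPX4, TXNRD1, TXNRD2 and TXNRD3. Of these 5, 4 had a log2 ratio below 0, as had most symbols (7190 of all 12758). The median of -0.35 was the value of TXNRD2, which was weakly listed at 3.33 FPKM in No-SCI and 2.62 FPKM in SCI. The summed level of the 5 was 1152 FPKM in No-SCI and 922 FPKM in SCI. With 1 value per group, these medians are descriptions of the listed values.

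Genes around the set were given by lists of known function. For the counts past 2-fold in these lists and in the markers further on, the shares over all symbols were 7.93% higher and 12.1% lower. Of 13 regulators of NRF2, 12 were listed, with 2 past 2-fold in each direction and a median log2 ratio of -0.21. The higher ones were MAFF, a small MAF partner of NRF2, at 40.4 FPKM in No-SCI and 133 FPKM in SCI (1.72), and the kinase GSK3B at 32.9 and 71.9 FPKM (1.13). The lower ones were NFE2L1, the related factor NRF1, at 137 and 56.3 FPKM (-1.29) and BTRC, a ubiquitin ligase subunit, at 161 and 69.5 FPKM (-1.21). The most abundant were SQSTM1 (p62), which binds KEAP1, at 2895 and 2161 FPKM (-0.42) and PARK7 at 1403 and 1366 FPKM (-0.04). Of 22 further NRF2 targets 16 were listed, 0 past 2-fold higher and 2 lower (12.5%, near the share over all symbols). The lower ones were AKR1B10 at 196 and 84.7 FPKM (-1.21) and AKR1B8 at 49.7 and 21.9 FPKM (-1.18). The 16 listed targets had a median of 0.05 and a mean of -0.11. HMOX1, heme oxygenase, was the most abundant of these at 777 and 1046 FPKM (0.43), followed by the ferritin light chain gene FTL1 at 288 and 347 FPKM (0.27).

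NADPH is the reductant of both thiol systems, and 14 of 15 genes of its supply were listed. Their median log2 ratio was -0.46, with 1 past 2-fold higher and 3 lower (7.14% and 21.4%, against 7.93% and 12.1% of all symbols). PGLS, of the pentose phosphate pathway, was at 22.1 FPKM in No-SCI and 78.1 FPKM in SCI (1.82), and the lower ones were the isocitrate dehydrogenase IDH1 at 195 and 87.8 FPKM (-1.15), the malic enzyme ME1 at 53.8 and 23.2 FPKM (-1.21) and ALDH1L1, a folate enzyme and astrocyte marker, at 8.19 and 3.02 FPKM (-1.44). TALDO1, transaldolase, which was second to IDH1 in No-SCI and above it in SCI, was at 159 and 260 FPKM (0.71). Genes of glutathione breakdown, cysteine supply and uptake (18 of 21 listed) had 0 past 2-fold higher, 4 lower (22.2%) and a median of -0.42. CHAC1, which cleaves glutathione inside the cell and is induced by the integrated stress response, was at 109 FPKM in No-SCI and 13.5 FPKM in SCI, a log2 ratio of -3.02. The other lower ones were the transsulfuration enzyme CBS at 19.97 and 7.06 FPKM (-1.50), the dipeptidase DPEP2 at 6.59 and 1.78 FPKM (-1.89) and SLC1A1, a cysteine and glutamate transporter, at 7.73 and 3.22 FPKM (-1.26). The cystine transporter subunit SLC3A2 was the most abundant at 314 and 262 FPKM (-0.26), followed by GLO1, a glyoxalase, at 295 and 228 FPKM (-0.37).

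Beside the selenoenzymes of the set, genes of selenium use (18 of 22 listed) had 3 past 2-fold in each direction (16.7%) and a median log2 ratio of -0.17. SELENOM was at 113 FPKM in No-SCI and 247 FPKM in SCI (1.13), SELENON at 2.17 and 5.41 FPKM (1.32) and SELENOO at 3.75 and 8.41 FPKM (1.16). SECISBP2L, related to the factor that reads selenocysteine codons, was at 89.7 and 30.8 FPKM (-1.54), PSTK, a kinase in selenocysteine synthesis, at 10.4 and 4.33 FPKM (-1.27) and SELENOT at 73.5 and 34.1 FPKM (-1.11). The most abundant in No-SCI were SELENOW at 660 and 394 FPKM (-0.74) and SELENOF at 436 and 325 FPKM (-0.43), and SELENOK, close to SELENOF in No-SCI and the most abundant in SCI, was at 435.8 and 431 FPKM (-0.02). The selenoproteins thus lay on both sides of 0. The 4 methionine sulfoxide reductases, which repair oxidised methionine, had a median of 0.10, the 3 of 5 metallothioneins listed a median of 0.25, and 7 of 8 copper supply genes a median of 0.15 (mean -0.02), each with 0 past 2-fold. The most abundant of each were MSRB2 at 185 and 152 FPKM (-0.28) and MSRA at 99.7 and 149 FPKM (0.58), MT3 at 2377 and 1675 FPKM (-0.50) and MT2A at 1524 and 1957 FPKM (0.36), and COX17 at 177 and 244 FPKM (0.46) and ATOX1 at 70.4 and 98.98 FPKM (0.49). Of 19 sources of superoxide and peroxide 11 were listed, with a median of -0.16. CYBA, a subunit of the phagocyte oxidase, was at 17.2 and 42.7 FPKM (1.31), and MAOB, the monoamine oxidase of astrocytes, at 44.8 and 14.5 FPKM (-1.63). RAC2, another subunit of the phagocyte oxidase, was the most abundant at 140 and 126 FPKM (-0.16).

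**Figure D3:**
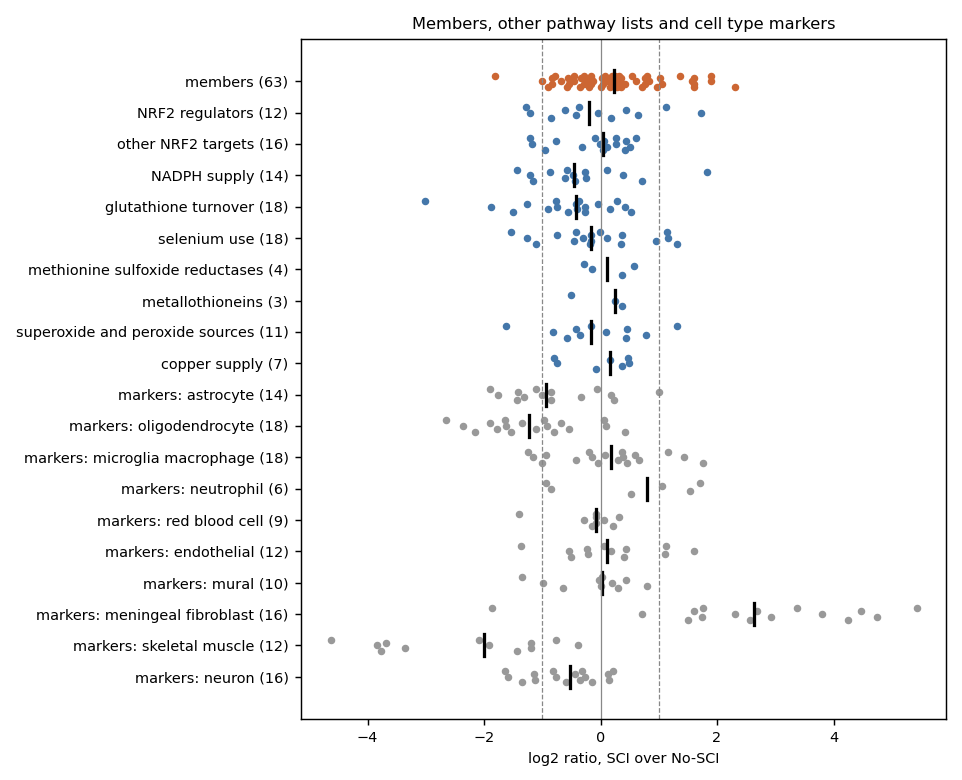
Log2 ratio of SCI to No-SCI of each listed gene (points) in the set, in 9 other pathway lists and in 10 lists of cell type markers, with the number of listed genes in brackets, the median as a black bar and dashed lines at 2-fold. The median of the members is 0.22, those of the NADPH supply and glutathione turnover lists are -0.46 and -0.42, and the marker medians run from -2.003 for skeletal muscle to 2.63 for meningeal fibroblasts.

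Cell type markers differed between the groups as well, some by more than the members did. Meningeal fibroblast markers were past 2-fold higher in SCI in 14 of 16 listed genes and lower in 1, and their summed level was 106 FPKM in No-SCI and 1122 FPKM in SCI. Skeletal muscle markers were lower past 2-fold in 10 of 12, with sums of 443 and 50.6 FPKM. Oligodendrocyte markers were lower past 2-fold in 10 of 18 (sums of 88926 and 48739 FPKM, median log2 ratio -1.23) and astrocyte markers in 7 of 14 (26059 and 21824 FPKM, median -0.93). Neuron markers were lower past 2-fold in 5 of 16 and below 0 in 13 (1988 and 1838 FPKM, median -0.52). Most of the neuron sum was GAP43, at 1275 and 1406 FPKM (0.14). For microglia and macrophages 3 of 18 were past 2-fold in each direction (1317 and 1542 FPKM), and 3 of 6 neutrophil markers were higher (107 and 178 FPKM). Of the endothelial markers 3 of 12 were higher and 1 lower (93.1 and 137 FPKM). Of the mural markers 1 of 10 was lower (438 and 560 FPKM, median 0.02), and most of their sum was TAGLN, at 383 and 517 FPKM. The red blood cell markers had a median log2 ratio of -0.08 that turned to 0.04 when the median gene was set to 0, with 1 of 9 lower past 2-fold and sums of 3229 and 3146 FPKM. The table lists marker genes of glia as well as of neurons, and GFAP, AQP4 and S100B were not analysed here. These markers differed in the same contrast as the members, and their part in the values of any member was not tested.

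**Figure D4:**
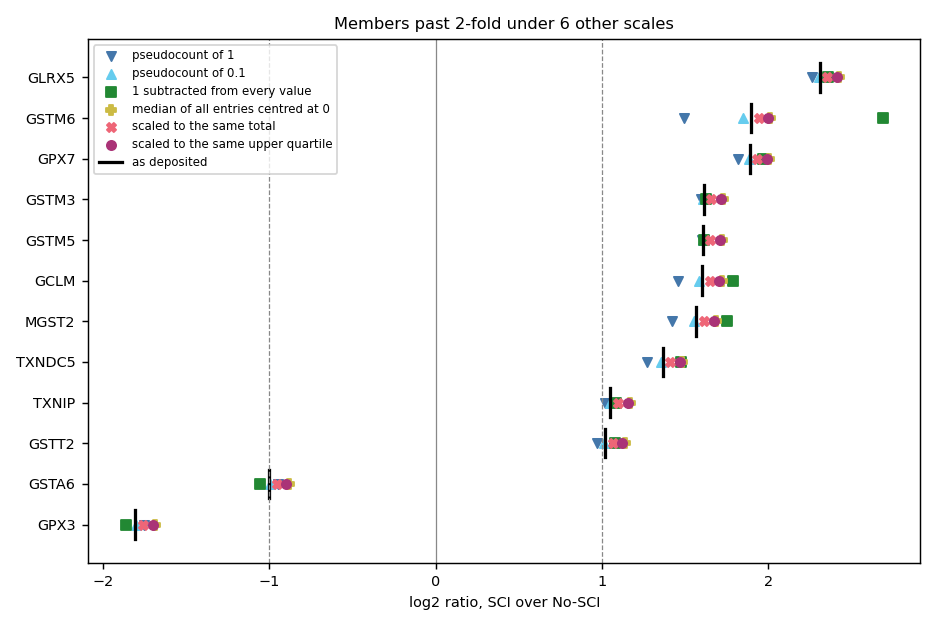
Log2 ratio of SCI to No-SCI of the 12 members past 2-fold as deposited (black bars) and on 6 other scales (symbols), with dashed lines at 2-fold. GSTM6 has the widest spread, reaching 2.69 with 1 subtracted from every value, and of these 12 members GSTA6 and GSTT2 cross a dashed line.

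Among the 12 members past 2-fold, GSTM6 depended most on the scale. It had a log2 ratio of 1.90 as deposited and of 2.69 when 1, the lowest value in the table, was subtracted from both groups. GSTA6 was past 2-fold as deposited and with 1 subtracted and within it on the other 5 scales, and GSTT2 was within it with a pseudocount of 1, at 0.97. NQO2, within 2-fold as deposited and not among the 12, was past it with 1 subtracted (1.002) and with the median gene set to 0 (1.09). It was also past 2-fold with scaling to the same total (1.02) or upper quartile (1.08).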

How the data were processed

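RNA of the acellular fraction of rat spinal cord was measured in 2 libraries of No-SCI and 1 of SCI by the sample labels (2 animals per condition by the study's methods). The authors downsampled the reads, aligned them to rn6 with STAR 2.5.4b (version per the labels) and obtained levels with Cuffdiff (cufflinks 1.3.0), normalized to the upper quartile. In the table of 12771 entries that the authors deposited, each condition has a single FPKM value. The remaining columns hold the authors' own comparison (fold change, p-value, q-value and a call) and were not used. The lowest deposited value is exactly 1 (18 entries in No-SCI and 37 in SCI, 0 members among them). Of values from 1.1 to 2 FPKM, 87.5% carry 6 decimals, against 40.2% from 2 to 3 FPKM. From 10 to 11 FPKM, 80.9% carry 5 decimals, against 65.7% from 11 to 12 FPKM. Such a pattern could come from 1 added to values of 6 digits. If so, each printed FPKM is 1 too high and ratios of weakly listed genes are too near 0. Whether a constant was added is not given in the sources used here, so ratios were also computed with 1 subtracted. For 22 members the values carry 7 digits where others carry 6, and whether these were summed over several entries is likewise not given.

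Log2 ratios (SCI over No-SCI) carry no pseudocount. For the 13 symbols listed more than once, none of them a member, the entry of larger mean was kept. Members and lists were chosen with earlier results of these data known. Named with both values are members past 2-fold, the 2 most abundant members of each family, the glutathione synthesis, dismutase, quinone reductase, NRF2 and thioredoxin core genes and the members next to 2-fold, and in the other lists of the pathway genes past 2-fold and the 2 most abundant in No-SCI; some other members and list genes, such as SELENOK, are given with values as well, chosen after these were seen. The pattern of the thioredoxin core was corrected to take TXN1, the rat symbol, after the table was read. Because the table holds 1 value per group, there is no replicate error and no test. The study's methods state a read depth per sample, but the table gives no counts, so the reads behind a value, and the precision they allow, are unknown. The alternatives were pseudocounts of 1 and 0.1, subtracting 1, median centring, scaling to the same total or upper quartile, folds of 1.3, 1.5 and 3, a minimum mean of 5 FPKM, sums over repeated entries, means for medians, and the set without the other thioredoxin domain proteins. Leaving out the mu class or the endoplasmic reticulum enzymes was added after the data were seen. Promoters came from RefSeq (GRCr8) and were searched on both strands, with the orientation of the promoter table checked by the position of TATAAA. Protein sequences were not used here. The counting of members and medians was tested on simulated data. Python 3.11.15 with numpy 2.4.6, pandas 2.3.3 and matplotlib 3.10.9 was used.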

Additional observations from a re-analysis of the deposited data

How the results depend on the processing

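Each value rests on 1 group estimate per condition, with no spread and no read counts, so differences near 2-fold are not separable from their neighbours. The count of members at least 2-fold lower in SCI, 2 as deposited, was 1 with a pseudocount of 1 or 0.1, with the median gene set to 0, and with scaling to the same total or upper quartile. On these scales 9.53% to 11.7% of all symbols were at least 2-fold lower, against 12.1% as deposited. The median log2 ratio of the members, 0.22, became 0.34 with the median gene set to 0 and 0.33 with upper quartile scaling, both of which shift all genes alike, by 0.12 and 0.10. At other folds the members counted higher and lower were 19 and 12 past 1.3-fold (24.6% and 35.7% of all symbols), 17 and 7 past 1.5-fold (16.9% and 26.3%), and 6 and 1 past 3-fold (3.17% and 3.27%). The count higher stayed between 7 and 11 under the other alternatives, where 6.38% to 10.4% of all symbols were higher. It was 7 of 55 without the mu class and 8 of 57 without the endoplasmic reticulum enzymes, beside 7.93% of all symbols. Over the 12 members past 2-fold on 6 other scales, 41 log2 ratios moved by at most 0.1, 31 by more, and 0 turned direction. Median centring and upper quartile scaling shift every gene, by 0.117 and 0.104, and account for most of the 31. No ratio past 2-fold could turn direction on these scales, so that count is no check on the genes. No paired analysis was possible because the table holds 1 value per condition and the labels share no replicate number. Leaving out a library was not run for the same reason, and the planned protein features were not run.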
